A study of Mus musculus with 2 samples.

Results

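Basal duct cells of the mouse submandibular gland were examined as the cells that carried RNA of the keratins Krt14 and Krt17. Members were chosen from measured values. A barcode needed 200 genes or more and less than 20% of its UMIs from mitochondrial genes, UMIs being the counted RNA molecules. It further had to hold at least 3 UMIs of Krt14 and Krt17 together, making up at least 0.1% of its UMIs, fewer than 3 UMIs of the smooth muscle actin gene Acta2, and none of Pecam1 (endothelium) or Ptprc (leukocytes). The 6 cell division genes Mki67, Top2a, Cdk1, Birc5, Ube2c and Cenpf together had to stay under 3 UMIs. This left 409 cells of the 4086 barcodes that passed the first filter and of 6696 in all, 347 of them wild-type and 62 KO. The levels of these 11 genes therefore describe the choice and are not results.

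Glands of adult mice aged 12 weeks were dissociated and run through droplets on the 10x Chromium platform, which reads the 3′ end of each RNA. There was 1 library from p63 wild-type and 1 from p63 KO mice. The labels do not say how, when or in which cells p63 was removed, which exons were deleted, how many animals gave a library, or whether cells were sorted. They call the source epithelial progenitor cells, while the protocol speaks of the whole gland. With 1 library per genotype nothing could be tested, cells of a library were not taken as replicates, and every interval covers counting error only. The series title concerns p63 in salivary progenitor cells, TGF-beta and activin signalling, and follistatin, the activin-binding protein encoded by Fst.

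Salivary ducts are built of luminal cells that face the duct and of basal cells that lie against the basement membrane. Basal cells are held there by hemidesmosomes, carry keratin filaments of Krt14 paired with Krt5, and in many glands act as a reserve for renewal. The p53 family member p63, product of Trp63, drives the basal programme in stratified and glandular epithelia, and the keratin genes Krt5 and Krt14 are textbook targets. Krt17 is a partner keratin that is often raised in wounded or stressed epithelium.

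The stretches before the start of Krt5 and of Sfn are shown. In the KO cells Krt5 was almost absent, and Sfn, which encodes the adaptor protein 14-3-3 sigma, was not past the 2-fold limit used below. Of 10 genes looked for, 6 had a window, and Krt17, Krt15, Ly6d and Trp63 had none. The 2 printed windows were those without exon bases whose RefSeq and GENCODE starts differed by at most 7 bases. Each line gives the 250 bases before the RefSeq start on GRCm38.p6, with capitals for the p53 family half-site that a script found on either strand. The Krt5 window is chr15:101712906-101713155 and the Sfn window chr4:133602169-133602418, both on the minus strand.
Krt5: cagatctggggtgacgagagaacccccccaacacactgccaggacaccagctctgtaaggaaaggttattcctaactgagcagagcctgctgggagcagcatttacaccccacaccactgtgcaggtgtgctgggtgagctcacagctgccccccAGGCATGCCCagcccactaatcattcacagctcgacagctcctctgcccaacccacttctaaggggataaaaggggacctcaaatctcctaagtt
Sfn: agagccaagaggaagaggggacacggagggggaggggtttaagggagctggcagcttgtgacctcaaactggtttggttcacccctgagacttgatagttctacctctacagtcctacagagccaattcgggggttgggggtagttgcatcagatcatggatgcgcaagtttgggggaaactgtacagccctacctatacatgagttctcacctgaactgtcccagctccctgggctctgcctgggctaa
The Krt5 window held 1 such half-site, beginning 95 bases before the start, and the Sfn window held 0. The windows of Ptn, Col17a1 and Igfbp5, which were also lower in the KO, and of Krt14 held 0 too, and are not printed. By the GENCODE annotation the Ptn, Col17a1 and Igfbp5 windows include 41, 52 and 19 bases of exon, so they are only partly upstream sequence. The Krt14 window lies wholly inside that gene, past its GENCODE start, so its count does not describe the bases before that start. Of 32817 mouse windows of the same length, 7.12% held at least 1. A match of letters is a description and not a bound site.

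Sequencing gave 8811082 UMIs over 1970 wild-type barcodes and 11828669 over 4726 KO barcodes, with 1663 and 2423 kept. Krt14/Krt17 cells held a median of 3569 (wild type) and 2621.5 UMIs (KO), and their median mitochondrial shares were 4.49% and 4.72%. Ribosomal protein genes made up 29.8% (wild type) and 22.9% (KO) of their UMIs. The files shared 11 barcode sequences, and 0 of them marked a member in both. A doublet caller marked 0 wild-type and 6 KO barcodes, none of them members, which is too few to count as working, so doublets were left in.

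The targeted gene, Trp63 (ENSMUSG00000022510, chr16:25683763-25892102 on GRCm38), had 83 UMIs in 68 wild-type cells (19.6%, 15.6 to 24.2%) and 2 UMIs in 2 KO cells (3.23%). The KO level was 6.30-fold lower, with an interval of 1.69 to 52.9 that reached below 2-fold. Because the deleted exons are not given and the reads come from the 3′ end, this level cannot check the genotype label. In the Acta2-high cells Trp63 had 12 wild-type and 5 KO UMIs.

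Krt14/Krt17 cells were a far smaller share of the KO library. They made up 20.9% of kept wild-type cells (95% exact binomial interval 18.9 to 22.9%) and 2.56% of kept KO cells (1.97 to 3.27%). With every cell thinned to 1000 UMIs before the choice, the shares were 15.5% and 1.86%. The deposited barcodes began at 2175 UMIs in the wild type and at 1076 in the KO, which thinning does not undo. The effect of this on the shares was not tested. Fewer basal cells in the gland, fewer of them surviving dissociation, and lower keratin RNA per cell cannot be told apart here.

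Each part of the rule removed different cells. There were 442 wild-type and 107 KO keratin-positive cells. Acta2 set aside 29 and 38 of them, Pecam1 33 and 14, Ptprc 6 and 0, and the division genes 34 and 0, with some cells failing more than 1 part. Left outside were 30 wild-type and 0 KO dividing Krt14/Krt17 cells, and 27 and 31 with Acta2 at 3 UMIs or more, the pattern of contractile myoepithelial cells. Just inside the lower keratin limit stood 6 wild-type and 2 KO members with exactly 3 UMIs, and just outside it 40 and 32 kept cells with 2.

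The keratin levels are given only to describe the cells that the rule chose. Krt14 and Krt17 together gave a median of 15 UMIs per wild-type cell (3 to 103) and 10 per KO cell (3 to 81), or 0.367% and 0.330% of the cell's UMIs. The Krt14 share of this sum had a median of 57.8% in wild-type and 38.5% in KO cells. Krt14 held the majority in 191 wild-type cells (55%) and in 20 KO cells (32.3%). Both keratins were found in 312 wild-type and 57 KO cells, Krt14 alone in 30 and 1, and Krt17 alone in 5 and 4.

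**Figure D1:**
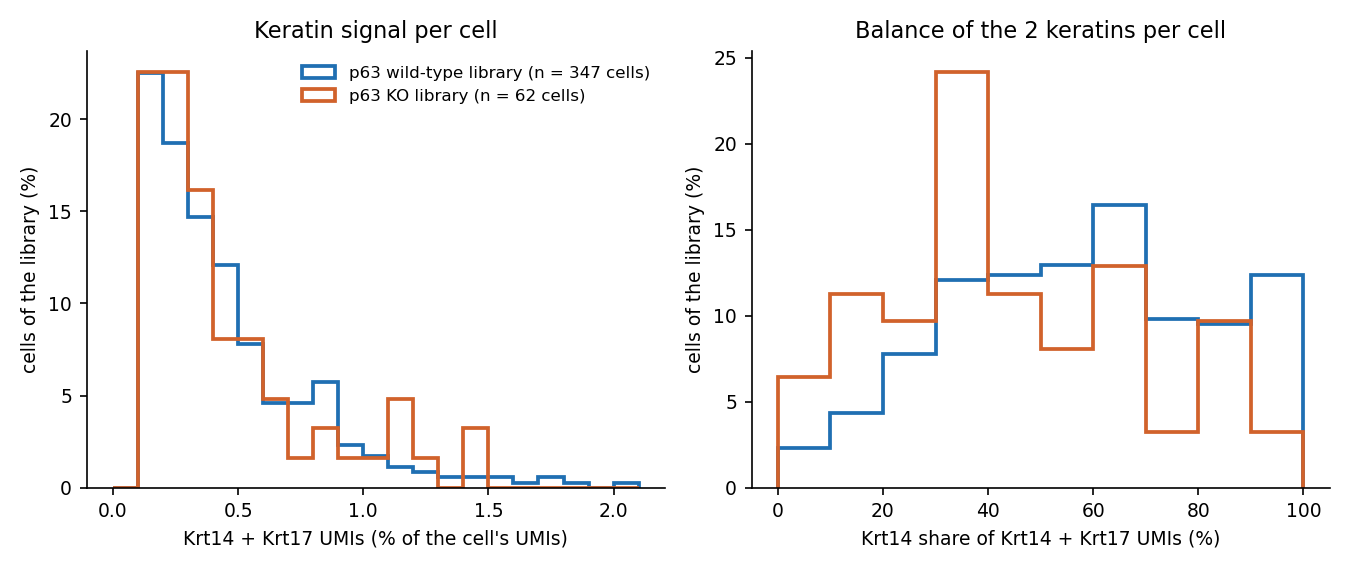
Share of the Krt14/Krt17 cells of each library (y axis, percent of 347 wild-type or 62 KO cells) by the Krt14 plus Krt17 share of a cell's UMIs (left, percent) and by the Krt14 part of that sum (right, percent). These values describe the choice of cells, with medians of 0.367% and 0.330%, wild type first, on the left and 57.8% and 38.5% on the right.

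The wild-type members carried the basal markers that the rule had not used, and the KO members lacked part of them. Levels are given as UMIs summed over the cells of a library and as CPM, a level scaled to 1000000 of those UMIs. Krt5 (ENSMUSG00000061527, chr15:101707070-101712898 on GRCm38), the partner of Krt14 in the filament, had 443 UMIs (308 CPM) in the wild-type and 5 (22.9 CPM) in the KO cells, which is 13.5-fold lower (95% interval of the ratio 5.72 to 41.7). It was found in 62.5% of wild-type cells (57.2 to 67.6%) and in 2 of 62 KO cells (3.23%, 0.393 to 11.2%), and 1 of those cells held 4 of the 5 UMIs. Krt15 (ENSMUSG00000054146, chr11:100131758-100135928), a keratin of basal and stem-like epithelial cells, had 521 UMIs in 49.0% of wild-type cells and 0 in the KO cells. Taking 3 UMIs over the group as the floor, it was at least 26.4-fold lower, and the exact interval of the ratio began at 21.4. A count of 0 of 62 allows a share of up to 4.84% by that floor and 5.78% by the exact binomial interval, which limits cells with a UMI and not cells that express the gene. Thinned to 1000 UMIs, detection was 25.9% and 1.61% for Krt5 and 21.6% and 0% for Krt15.

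The other basal markers remained in many KO cells. Sfn (ENSMUSG00000047281) had 1647 and 195 UMIs, or 1147 and 894 CPM, with a log2 ratio of KO over wild type of -0.36. It was detected in 83.6% of wild-type and 71.0% of KO cells, or 61.1% and 46.8% after thinning. Ly6d, a surface protein of the Ly6 family, had 2070 and 123 UMIs, 2.56-fold lower in the KO (2.13 to 3.09), and was detected in 94.8% and 66.1%. The Ly6d difference did not pass the limit in 5 of 15 other settings, namely thinning, a stricter keratin minimum, Krt14 or Krt17 alone, and without high-UMI members. Sfn and Ly6d were thus present in both sets, while Krt5, Krt15 and Trp63 go against the name basal in the KO library, whose members are called Krt14/Krt17 cells here.

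Stray RNA was gauged in cells that should lack these genes. In non-epithelial cells, taken as Epcam at 0 and Ptprc plus Pecam1 at 2 UMIs or more, Krt5 and Krt15 had 0 UMIs in 35 wild-type and 178 KO cells. Those cells had medians of 2598 and 1627.5 UMIs, and 0 of 35 allows up to 8.57%. Sfn UMIs occurred there in 11.4% (wild type) and 0.562% (KO), and Ly6d UMIs in 5.71% and 2.25%.

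**Figure D2:**
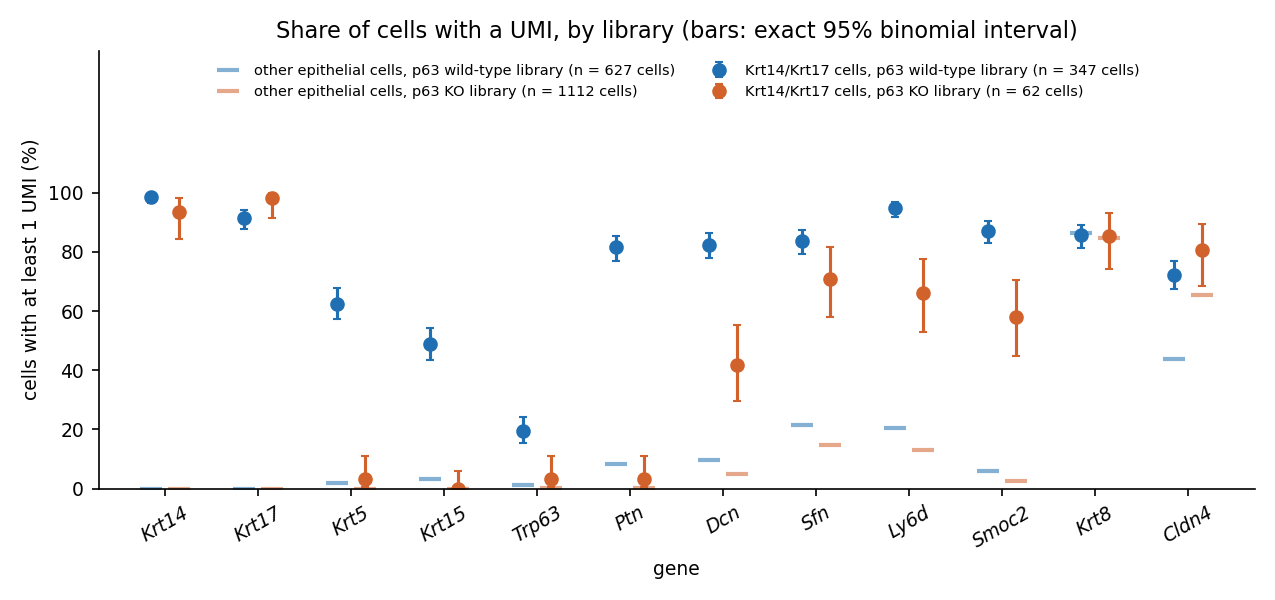
Percent of cells with at least 1 UMI of each gene (y axis) in Krt14/Krt17 cells of the wild-type (blue, 347 cells) and KO library (orange, 62 cells), with exact 95% binomial intervals, and in other epithelial cells of each library (short lines). Krt5 stood at 62.5% and 3.23% and Krt15 at 49.0% and 0%, while Krt8 stood at 85.6% and 85.5%.

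At full depth wild-type cells often held 3 or 4 of the basal markers at once, and KO cells mostly 1 or 2. Of Krt5, Krt15, Sfn and Ly6d, wild-type cells held all 4 in 106 cases, 3 in 122, 2 in 97 and 1 in 22, and none held 0. The KO cells held 0 of them in 7 cases, 1 in 25, 2 in 28 and 3 in 2. Krt5 and Krt15 met in 119 wild-type cells and in 0 KO cells. In the wild type Krt15 was found in 54.8% of cells with Krt5 and in 39.2% of cells without it, though deeper cells show more of every gene, and after thinning the shares were 27.8% and 19.5%. The luminal keratin Krt8 was present in 297 wild-type and 53 KO members, so most cells chosen by Krt14 and Krt17 also carried RNA of a luminal keratin.

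Against the wild type, the KO members had lower levels of 5 secreted growth factors and binding proteins, Ptn among them, and higher levels of Ctsl and Lcn2. A gene passed the limit when its 2 sums reached 50 UMIs and the exact 95% interval of its ratio lay wholly beyond 2-fold. In the members 3483 genes could be compared, 51 of which were higher (1.46%) and 52 lower (1.49%) in the KO, and the median log2 ratio of all genes was 0.06 with 10 CPM added. Scaling by TMM, which moved that median to -0.16, gave 24 higher and 73 lower. Since so few of all genes passed, a short list with 0 past the limit does not differ from genes at large. Only 62 cells stood behind the KO sums.

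**Figure D3:**
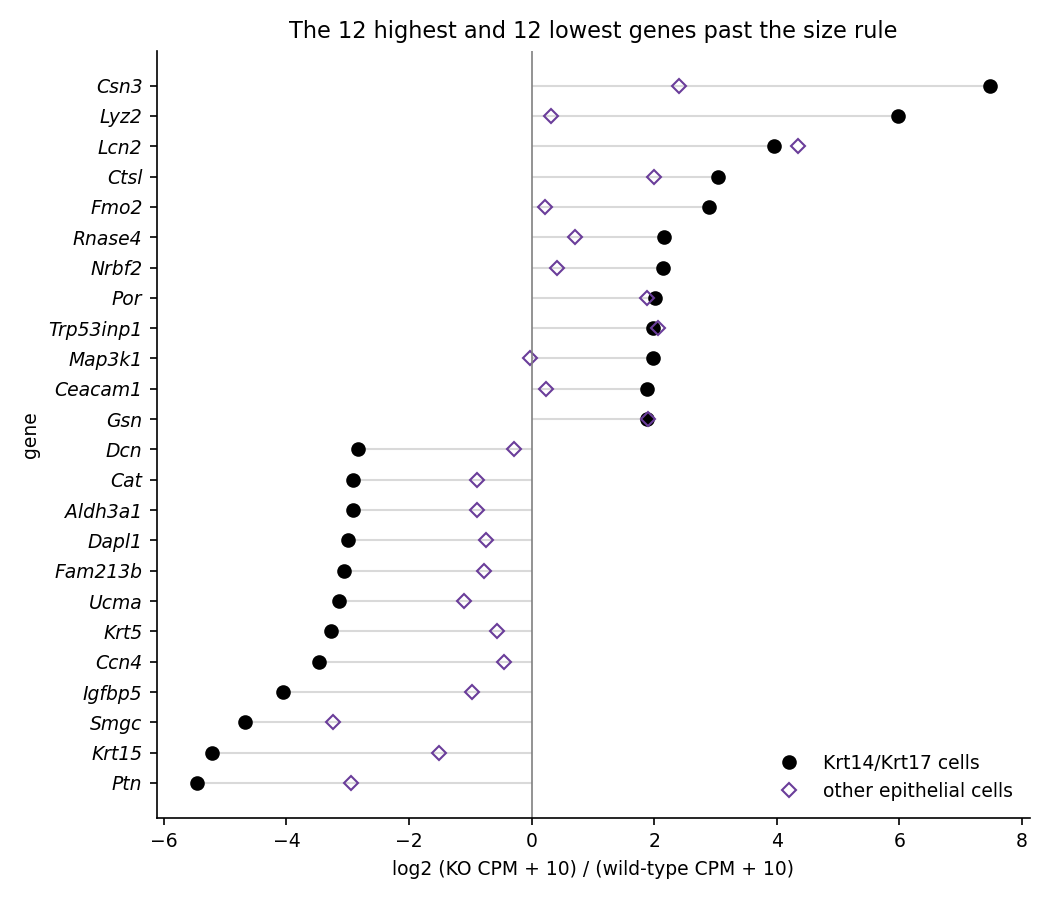
Log2 ratio of KO over wild-type CPM, with 10 added to each, for the 12 highest and 12 lowest named genes in Krt14/Krt17 cells (black) and for the same genes in other epithelial cells (open diamonds). Ptn lay lowest at -5.46 and Csn3 highest at 7.48, and Lcn2 and Por lay at 4.34 and 1.88 in other epithelial cells.

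Secreted growth factors and their binding proteins held several of the lowest genes. Of 26 listed genes 13 could be compared, 5 of them lower and 0 higher, with a median log2 ratio of -1.35. Ptn, which encodes the heparin-binding growth factor pleiotrophin (ENSMUSG00000029838, chr6:36714929-36810220), had 1201 UMIs in 81.6% of wild-type cells and 2 UMIs in 2 KO cells, a ratio of 91.2 (25.2 to 754). Igfbp5, a binding protein of insulin-like growth factors, had 224 and 0 UMIs, at least 11.3-fold lower by the floor (interval from 9.15). Ccn4, a matricellular target of Wnt signalling, had 145 and 0 UMIs, at least 7.34-fold lower (interval from 5.89). The BMP and Wnt antagonist Sostdc1 had 129 and 2 UMIs (9.80-fold lower, 2.66 to 81.8), and Igfbp4 had 177 and 6 (4.48-fold lower, 2.02 to 12.4). By comparison Ccn1, which encodes another matricellular protein, had 1864 and 416 UMIs, a log2 ratio of 0.55, and Hbegf, an EGF receptor ligand, had 473 and 82 and a ratio of 0.19.

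Some of these genes were also low in the KO library outside the members. In other epithelial cells, meaning cells with Epcam and no Krt14, Krt17, Ptprc or Pecam1 UMI, Ptn had 206 wild-type and 1 KO UMIs. Krt15 had 55 and 0 UMIs there. Of 7784 genes compared in these cells 302 were higher (3.88%) and 127 lower (1.63%). Of the 12 lowest genes in the members 4 were lower there too, and of the 12 highest 6 were higher. In Acta2-high cells, where 4.27% of 539 genes were higher and 3.15% lower, 3 of the 12 highest and 1 of the 12 lowest passed the same way. In non-epithelial cells, where 3.83% of 1148 genes were higher and 2.26% lower, these numbers were 2 and 1.

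Among matrix genes Dcn alone passed the limit. Dcn, which encodes the collagen-binding proteoglycan decorin (ENSMUSG00000019929, chr10:97479609-97518143), had 2328 UMIs in 82.4% of wild-type cells and 48 in 41.9% of KO cells, 7.37-fold lower (5.54 to 10). Of 8 matrix genes with enough UMIs 1 was lower and 0 higher. Timp3, an inhibitor of matrix proteases, had 879 and 164 UMIs, a log2 ratio of 0.29, and the adhesive glycoprotein Thbs1 had 408 and 107 and a ratio of 0.77. Decorin is also a fibroblast product. Of 10 fibroblast markers, 7 were at 0 in the wild-type members and 6 in the KO members, among them Col1a1, Col3a1 and Dpt in both. The summed level of the list had a median of 0.0996% of a wild-type cell's UMIs (0 to 1.02%) and 0.0147% of a KO cell's (0 to 0.423%). Dcn was also present in 27 of 27 wild-type Acta2-high cells, with 202 UMIs against 109 in the KO ones. These were sums out of 117118 wild-type and 86453 KO UMIs, so they are not scaled levels.

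Further genes among the lowest had no list of their own. Ucma, a secreted protein known from cartilage, had 928 UMIs in 80.1% of wild-type cells and 14 in 19.4% of KO cells (10.1-fold lower, 5.97 to 18.5). The peroxide-degrading enzyme catalase, Cat, had 340 and 5 UMIs (10.3-fold lower, 4.38 to 32.0). In the wild type 3 cells held 32.1% of the Cat UMIs. Aldh3a1, an aldehyde dehydrogenase, had 144 and 1 UMIs, Dapl1 had 205 and 2, and Fam213b had 378 and 5. Each of these 5 genes was lower in the KO past the limit, with ratios between 10.1 and 21.9.

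Of the listed anchoring and adhesion genes Col17a1 alone passed the limit, against 1.46% higher and 1.49% lower among all 3483 genes. Col17a1, the hemidesmosome collagen, had 56 and 0 UMIs, at least 2.84-fold lower (interval from 2.23), and was the only 1 of 11 tested hemidesmosome and laminin genes past the limit. Integrin alpha-6 (Itga6) had 216 and 42 UMIs with a log2 ratio of 0.34, integrin beta-4 (Itgb4) 111 and 16 with -0.07, and the laminin chain Lamb3 102 and 5 with -1.30. Of 8 desmosome genes and 14 tight and adherens junction genes 0 passed in either direction, with medians of 0.15 and 0.47. Lists this short cannot be told apart from genes at large by such a count. Perp, a desmosome protein known as a p63 target, had 1038 and 177 UMIs, a log2 ratio of 0.16. On the list of 30 p63-associated basal genes 20 were tested, 3 were lower (Krt5, Krt15 and Col17a1) and 0 higher, with a median of -0.21.

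The simple keratins of luminal cells stayed within the limit. Krt8 had 1614 and 423 UMIs with a log2 ratio of 0.78, and its partner Krt18 had 3692 and 1051 with 0.90. Krt7 had 1024 and 79 UMIs with -0.96, and none of these 3 passed the limit. Krt23 was higher, with 114 and 53 UMIs (3.06-fold, 2.17 to 4.28), as it was in other epithelial cells at a log2 ratio of 1.21. The Krt23 difference in the members did not pass the limit in 6 of 15 other settings, thinning and TMM scaling among them. Of the luminal duct markers 9 were tested, 1 was higher (Csn3) and 0 lower, and Cldn4, a tight junction claudin, had 768 and 218 UMIs with a ratio of 0.89.

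Among the genes that were higher, Ctsl and Lcn2 were spread over many KO cells. Ctsl, the lysosomal protease cathepsin L (ENSMUSG00000021477, chr13:64359337-64370890), had 372 UMIs in 56.2% of wild-type cells and 481 in 93.5% of KO cells, 8.51-fold higher (7.42 to 9.77). It was the only 1 of 10 tested lysosome genes past the limit, and Ctsb had 178 and 55 UMIs with a log2 ratio of 0.97. Lcn2, an iron-carrier-binding defence protein (ENSMUSG00000026822), had 28 UMIs in 5.76% of wild-type and 98 in 58.1% of KO cells, 23-fold higher (15 to 36.4). Lcn2 was higher in other epithelial cells as well, with 25 and 1326 UMIs, a log2 ratio of 4.34, and in non-epithelial cells Lcn2 UMIs occurred in 0 of 35 wild-type cells and 14.6% of the KO ones. Of 6 tested innate defence genes 3 were higher (Lcn2, Wfdc18 and Lyz2) and 0 lower, against 1.46% higher and 1.49% lower among all 3483 genes. Unlike Lcn2, Wfdc18 and Lyz2 had most of their KO UMIs in very few cells, described below. Ctsl had log2 ratios of 2.01 in other epithelial and 1.69 in non-epithelial cells, and the latter did not pass. Fmo2, a flavin monooxygenase, had 31 and 49 UMIs (10.4-fold higher, 6.5 to 16.9), with 8.36% and 41.9% of cells positive, and in other epithelial cells its log2 ratio was 0.22.

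Smaller differences of this kind concerned a secreted ribonuclease, Rnase4, with 85 and 65 UMIs (5.03-fold, 3.59 to 7.04), and Por, the electron donor of cytochrome P450 enzymes, with 67 and 48 (4.72-fold, 3.19 to 6.94). The kinase gene Map3k1 had 79 and 54 UMIs (4.50-fold, 3.12 to 6.44) and was near level in other epithelial cells, at -0.02. Trp53inp1, Nrbf2, Ceacam1 and Gsn were also past the limit, with 25 to 45 KO UMIs each, and 1 KO cell held 23 of the 45 Gsn UMIs.

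Csn3 and Lyz2 stood highest through very few cells. Csn3, the gene of kappa-casein, had 0 UMIs in the wild-type members and 388 in 4 KO members, at least 851-fold higher in the sums (interval from 689), and those 4 cells held 311, 63, 13 and 1. Lyz2, a lysozyme gene, had 22 UMIs in 19 wild-type cells and 345 in 3 KO cells, and these were the first 3 of the Csn3 cells, with 276, 58 and 11. Lyz2 has a near copy, Lyz1, so its reads could be split or shared between them. The 4 cells had 8949, 5101, 10042 and 4591 UMIs against a median of 2621.5, and 0 Krt5 UMIs. Of 12 leukocyte markers 7 were at 0 in the KO members, among them Tyrobp, Cd52, Laptm5 and Ptprc (by the rule), and in the wild-type members Ptprc and Cd3e were at 0. The summed leukocyte level had a median of 0.0312% (0 to 0.664%) in wild-type and 0% (0 to 3.08%) in KO cells. Whether the 4 barcodes held more than 1 cell was not tested. Wfdc18, a whey acidic protein family gene of intercalated ducts, was 3.46-fold higher with 1506 and 791 UMIs, but 3 KO cells held 85.2% of its UMIs, and without members above 2 times their library's median UMIs its log2 ratio was -1.13.

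**Figure D4:**
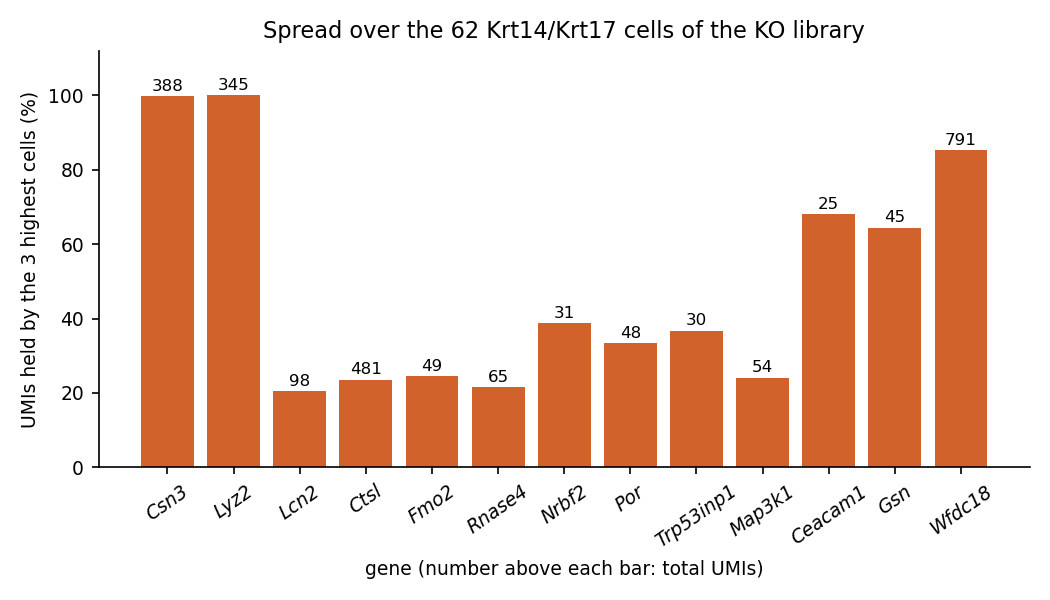
Percent of a gene's UMIs that came from its 3 highest cells (y axis) among the 62 KO Krt14/Krt17 cells, with the total number of UMIs above each bar. Csn3, Lyz2 and Wfdc18 stood at 99.7%, 100% and 85.2%, and Lcn2 and Ctsl at 20.4% and 23.5%.

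Follistatin, named in the study's title, gave few UMIs in these cells. Fst (ENSMUSG00000021765) had 29 UMIs in 16 wild-type cells (4.61%, 2.66 to 7.38%) and 6 UMIs in 5 KO cells (8.06%, 2.67 to 17.8%), which is 20.2 and 27.5 CPM. KO cells stood at 1.36 times the wild-type level, with an interval of 0.462 to 3.34, so a difference in either direction was not detectable at this depth. In Acta2-high cells Fst had 29 and 3 UMIs. Of 10 tested TGF-beta and activin genes 1 was higher, Id3, an inhibitor of basic helix-loop-helix factors that BMP signalling induces, with 913 and 329 UMIs (2.37-fold, 2.09 to 2.69). Id3 was higher in other epithelial cells too, at a log2 ratio of 1.29, and did not pass in 5 of 15 settings, TMM scaling among them. Tgfb2, a ligand of the family, had 247 and 25 UMIs with -0.55.

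Other signalling and identity lists mostly stayed within the limit, as did most of all 3483 genes (1.46% higher and 1.49% lower). The Notch list gave 3 tested genes and 0 past the limit. Hes1, the best-known Notch target, had 766 and 161 UMIs, or 533 and 738 CPM, a log2 ratio of 0.46. Among 6 EGF and FGF receptor genes only the feedback inhibitor Errfi1 was higher (746 and 287 UMIs, 2.53-fold). It did not pass in 3 of 15 other settings. Of 14 epithelial transcription factors Foxq1 (371 and 164 UMIs, 2.91-fold) and Runx1 (197 and 88, 2.94-fold) were higher and 0 lower. Sox9 had 415 and 109 UMIs with a log2 ratio of 0.77, and Klf5 383 and 59 with 0.02. Antigen presentation genes gave 0 past the limit of 10 tested.

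A few cell cycle genes were lower and a few stress genes higher, where 1.46% of all 3483 genes were higher and 1.49% lower. Of 9 tested cell cycle genes outside the rule 2 were lower and 0 higher, with a median of -0.85: Dut, which keeps uracil out of DNA, had 102 and 1 UMIs, and the tubulin Tubb5 496 and 21 (3.59-fold lower, 2.32 to 5.85). The cyclin Ccnd2 had 383 and 28 UMIs, a CPM 2.08-fold lower in the KO and not past the limit, and Ccnd1 130 and 10 with a log2 ratio of -0.85. Dut did not pass in 1 of 15 other settings and Tubb5 in 4, thinning among them for both. Of 8 cell cycle inhibitors 0 passed, and Cdkn1a had 517 and 151 UMIs with 0.92. The rule had capped the division genes in both libraries, and the 30 dividing cells left out were all wild-type. Of 10 glucocorticoid and nutrient stress genes 4 were higher and 0 lower, with a median of 0.81. They were Tsc22d3 (122 and 70 UMIs, 3.78-fold), Txnip (151 and 65, 2.83-fold), Trp53inp1 and Errfi1. Over 15 other settings Tsc22d3 did not pass in 1, Txnip in 4, Trp53inp1 in 5 and Errfi1 in 3. Thinning was among these settings for each gene, and TMM scaling for Txnip and Errfi1. In other epithelial cells 8 of 14 genes of this list were higher, against 3.88% of all 7784 genes there. Of 17 immediate early and heat shock genes 2 were higher, Socs3 and Hspa1b. Socs3 did not pass in 2 of 15 other settings, TMM scaling among them, and Hspa1b in 5, thinning among them. Hspa1b had 557 and 280 UMIs (3.31-fold, 2.86 to 3.83), and since Hspa1a is a near-identical copy the split between them is uncertain.

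Levels are also given by keratin content, cut at Krt14 plus Krt17 shares of 0.253% and 0.490% into 3 near-equal wild-type groups. The rule used this share, so the values are a description and support none of the differences above. The wild-type groups held 116, 115 and 116 cells and the KO groups 26, 17 and 19. Krt5 stood at 189, 327 and 423 CPM from the low to the high wild-type group, and at 46.8, 0 and 0 in the KO groups. Sfn stood at 636, 1260 and 1594 CPM in the wild type and 580, 782 and 1726 in the KO. The counting interval of the KO value held the wild-type value in the low group (445 to 744) and the high group (1377 to 2137), and lay below it in the middle group (578 to 1033). Ptn and Dcn were nearly flat in the wild type, with 768, 963 and 765 CPM for Ptn and 1490, 1675 and 1705 for Dcn. In each KO group both were far lower, Ptn at 9.36, 16.0 and 0 CPM and Dcn at 234, 271 and 123. Hspa1b ran the other way, with 591, 350 and 201 CPM in the wild type and 2031, 814 and 247 in the KO. Median depth was lower in the high groups, with medians of 3053.5 (wild type) and 2040 UMIs (KO), against 3714.5 and 3594.5 in the low ones.

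**Figure D5:**
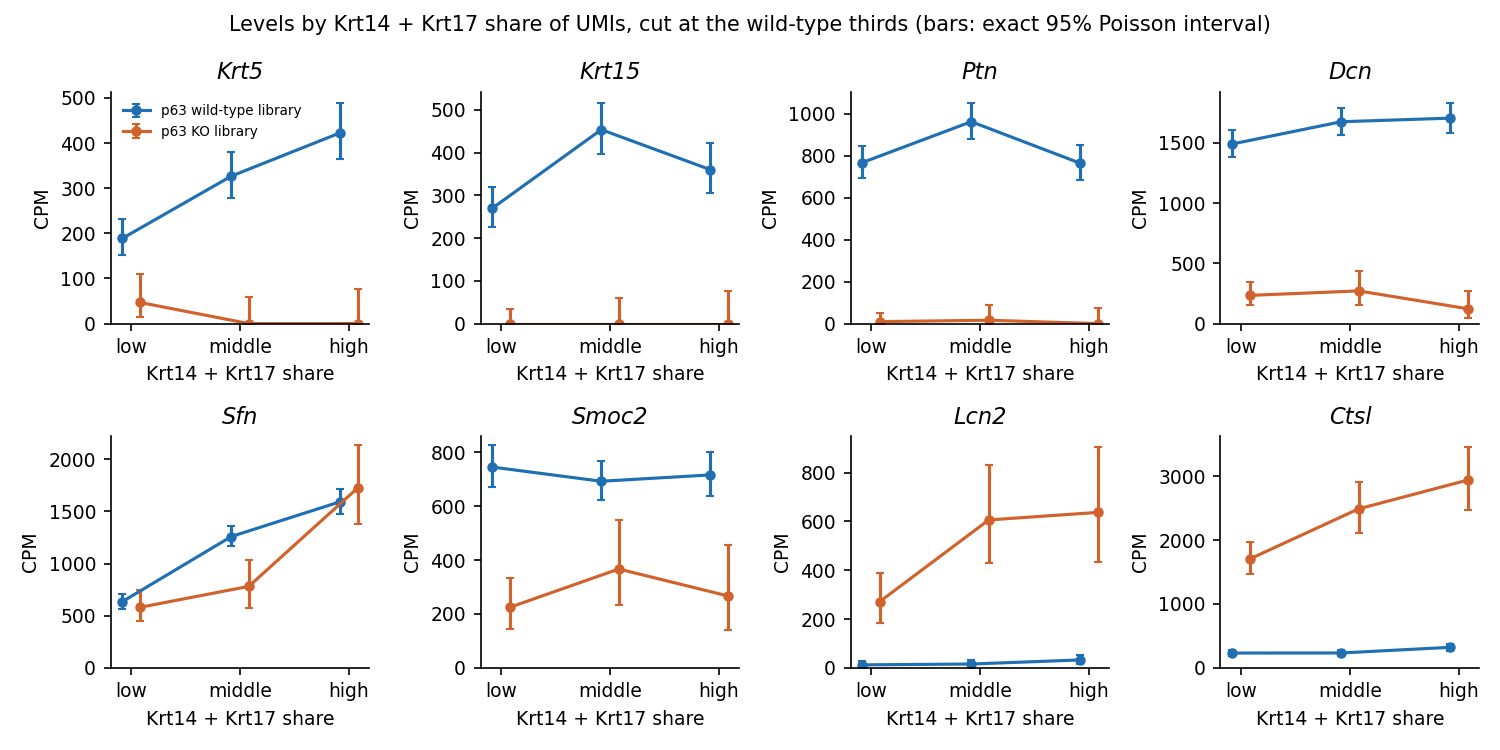
CPM of 8 genes (y axis, each panel on its own scale) in Krt14/Krt17 cells with a low, middle or high Krt14 plus Krt17 share, for the wild-type (blue) and KO (orange) library, with exact 95% Poisson intervals. In each keratin group Krt5, Krt15, Ptn and Dcn lay lower in the KO, while Sfn reached 1726 CPM in the high KO group against 1594 in the wild type.

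Compared with other epithelial cells of the same library, the members had a set of higher genes in common between the genotypes. In the wild type 6488 genes were compared, with 647 higher (9.97%) and 297 lower (4.58%) in the members. In the KO 6364 were compared, with 208 higher (3.27%) and 89 lower (1.4%). The libraries shared 157 higher genes, 24.3% of the wild-type calls and 75.5% of the KO calls, and 54 lower ones, 18.2% and 60.7%. The KO comparison rested on 62 members against 347, and 0 genes passed in opposite directions.

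The genes with the highest ratios in both libraries included matrix, coagulation and adhesion genes. Smoc2, a secreted calcium-binding matrix protein, was 31.7-fold higher than in other epithelial cells in the wild type (24.8 to 41.3) and 27.1-fold in the KO (17.7 to 42.0), although within the members it was 2.61-fold lower in the KO. Sfn was 13.8-fold and 14.9-fold higher, and F3, the coagulation starter tissue factor, 16.5-fold and 15.1-fold. The adhesion molecule Icam1 was 18.6-fold and 11.7-fold higher, and Id3 13.6-fold and 11.7-fold. Ccnd2 was 46.5-fold higher in the wild type and 20.3-fold in the KO. The AP-1 factor gene Fosl1 was 14.0-fold and 15.7-fold higher, and the BMP antagonist Nbl1 20.1-fold and 21.3-fold.

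Krt5, Krt15, Trp63 and Ptn were higher in the wild-type members than in other epithelial cells, which had no Krt14 or Krt17 UMI. The Acta2-high cells stood nearer to the members. In the wild type the 6 basal markers made up 0.754% of member UMIs and 0.546% of Acta2-high UMIs. The p63-associated genes made up 0.655% and 0.607%, and both lists include Krt14, a rule gene. Krt5 was 65.2-fold higher than in other wild-type epithelial cells (38.5 to 120), Krt15 19.5-fold (14.8 to 26.3), Trp63 24.4-fold (11.4 to 62.7) and Ptn 12.0-fold (10.4 to 14.0). In the KO library these genes together had too few UMIs in members and other cells for the comparison, with 0 to 5 each. Dcn passed the limit in both libraries, 19.4-fold higher in the wild type (17.0 to 22.2) and 3.29-fold in the KO (2.36 to 4.49). Krt8 was at 0.832 and 0.994 times the level of other epithelial cells.

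Saliva protein RNA was present in the members at low levels. Smgc, a mucin-like acinar protein, was 55.8-fold lower in the members than in other epithelial cells in the wild type and 215-fold lower in the KO. Members of the wild-type library held 1194 Smgc UMIs and those of the KO 5, and 2 wild-type cells held 336 and 296 of them. Smgc was also lower in the KO in other epithelial cells, at a log2 ratio of -3.23, and in non-epithelial cells, at -2.66. Of 6 tested acinar markers in the members 4 were lower and 0 higher (Smgc, Mucl2, Scgb2b26 and Scgb2b27), with a median of -2.25, and 10 of 12 were lower in other epithelial cells. Mucl2 UMIs occurred in all 35 wild-type non-epithelial cells and in 92.7% of the KO ones, with log2 ratios of KO over wild type of -1.69 in those cells and -2.18 in the members. The summed acinar level had a median of 0.830% (0.237 to 12.7%) in wild-type and 0.223% (0 to 0.872%) in KO members. In non-epithelial cells, the gauge of stray RNA, the medians were 0.936% and 0.315%, so the members' level was no higher than there. With the listed acinar and granular tubule genes left out of the totals, 51 genes were again higher and 52 lower between the genotypes.

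Marker lists of other cells differed in how much of the members' RNA they made up. Myoepithelial markers summed to 0.00919% of wild-type and 0.0165% of KO member UMIs, against 1.58% and 1.05% in Acta2-high cells. Endothelial markers summed to 0.0101% and 0.0055%, and of 6 neural and glial markers 0 could be compared. Luminal duct markers summed to 0.693% (wild type) and 1.31% (KO) of member UMIs, against 0.653% and 1.09% in other epithelial cells. Csn3, from few cells, gave 388 of the 2856 luminal duct UMIs in the KO members. The median member held 0.599% (wild type) and 1.04% (KO). Fibroblast markers, mostly Dcn in the wild type, made up 0.167% and 0.0435%, against 0.0121% and 0.0216%. Leukocyte markers made up 0.0482% and 0.176%, against 0.0378% and 0.0210%. Lyz2, from few cells, gave 345 of the 384 leukocyte marker UMIs in the KO members. The median member held 0.0312% (wild type) and 0% (KO). Granular tubule markers made up 0.533% and 0.443%, against 3.20% and 5.29%, and gave 1 of 10 lower, Klk1b16, a kallikrein among near copies, and intercalated duct markers gave Wfdc18 higher and Esp18 lower of 3. The 5 red cell markers were all lower in the KO. The wild-type members held 15932 haemoglobin UMIs, 14020 of them in 9 cells with more than 1% haemoglobin and up to 45.5% of their UMIs, while no KO member passed 0.221%. Without those 9 cells 50 genes were higher and 49 lower between the genotypes, and of the red cell markers Hbb-bs and Hbb-bt still passed, while Hba-a1, Hba-a2 and Alas2 did not.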

How the data were processed

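Single-cell RNA was measured in 1 wild-type and 1 p63 KO library. The authors deposited UMI counts per gene and barcode as raw counts over 27998 Ensembl IDs, and GENCODE M21 gave symbols to 27641 of these. Per the submitters' processing notes the tools were bcl2fastq 2.19.1, Cell Ranger 2.1.0 and Seurat 3.1.2 with genome mm10, and their roles and the rule that chose these barcodes are not given.

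Counts were summed over the members of a library and scaled to CPM with Python 3.11.15, numpy 2.4.6, scipy 1.17.1 and pandas 2.3.3. Ratios carry the exact conditional 95% interval of Poisson counts, and shares exact binomial intervals, both for counting error only. The script was tested on simulated data. Doublets were called with Scrublet through scanpy 1.11.5, and TMM factors came from edgeR 4.0.16 under R 4.3.3. A leukocyte gauge of stray RNA (Ptprc at 2 UMIs or more, Epcam 0) found 12 and 41 cells and was widened to non-epithelial cells after that number was seen. The KO library has 62 members, so 1 KO UMI is worth more CPM than 1 wild-type UMI and a few cells can set a KO sum.

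Members and gene lists were chosen with earlier results of these data known. Named genes were the rule genes and basal markers, Trp63 and Fst, the 12 highest and 12 lowest ratios past the limit (without mitochondrial, ribosomal protein, haemoglobin, immunoglobulin, sex-linked and unnamed genes), the 12 highest and 6 lowest against other epithelial cells in both libraries, and from each list the genes past the limit and the 3 most counted. A gene that this rule names is not reported here. Other genes named, such as Ctsb, Itgb4, Lamb3, Klf5, Sox9 and Ccnd1, were picked after their values were seen. Alternatives covered depth, barcode filters, the keratin minimum, single keratins, doublets, scaling, the UMI minimum, the added CPM, haemoglobin-rich and high-UMI cells, and each gene's highest cell.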

Additional observations from a re-analysis of the deposited data

Results flagged for a closer look

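In 5 genes the KO over wild-type ratio passed the limit in opposite directions in the Krt14/Krt17 cells and in other cells of the same libraries. The difference between those ratios was not tested, because each genotype had 1 library. Bglap3 had a log2 ratio of 1.48 in the members (158 wild-type and 71 KO UMIs) and -1.76 in Acta2-high cells (99 and 21), where 1 KO cell held 18 and 1 wild-type cell 33. Smgc had -4.68 in the members and 2.71 in Acta2-high cells, where 1 KO cell held 244 of 247 UMIs. Dcn had -2.83 in the members and 4.79 in non-epithelial cells, with 85 of the 88 KO UMIs in 1 cell. Lyz2 had 5.97 in the members and -3.80 in non-epithelial cells (182 and 36 UMIs), with 75 and 9 of them in 1 cell each. Wfdc18 had 1.78 in the members and -2.67 in non-epithelial cells (91 and 40 UMIs), with 69 and 25 of them in 1 cell each.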

How the results depend on the processing

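No paired analysis was possible because each genotype had 1 library, and leaving out a replicate was not run for the same reason. Over 15 other settings, 3 of them chosen after seeing the data (members over 1% haemoglobin, members over 2 times their library's median UMIs, or each gene's highest cell left out), 11 of 50 named genes past the limit passed it the same way in every one: Cat, Ctsl, Dcn, Esp18, Hbb-bs, Hbb-bt, Krt15, Krt5, Ptn, Smgc and Ucma. The other 39 lost the limit in at least 1 setting, and Trp63 passed it in 4.

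The 51 higher genes between genotypes became 10 with cells thinned to 1000 UMIs (6 of them shared with the 51), 30 with Krt14 alone, 31 with Krt17 alone, 24 with TMM scaling, 102 with a minimum of 10 UMIs, 113 with none, 33 without high-UMI members and 30 without each gene's highest cell. The 52 lower genes became 16 with thinning (all shared with the 52), 33 with Krt14 alone and 74 without each gene's highest cell. Members were 20.9% of wild-type and 2.56% of KO cells. These shares became 15.5% and 1.86% with thinning, 25.2% and 3.94% with a stricter barcode filter, 17.9% and 1.38% with none, 16.0% and 1.73% with a stricter keratin minimum, 16.7% and 1.65% with Krt14 alone, and 13.0% and 1.82% with Krt17 alone. Against other epithelial cells, thinning left 110 higher and 91 lower genes in the wild type and 61 and 43 in the KO. The KO higher count became 325 with no barcode filter, 335 with a minimum of 10 UMIs and 407 with none, and the wild-type one 973 with none. Direction turned for Fst (-0.35 thinned, -0.23 with Krt14 alone), the lysosome median (-0.13 with TMM), the matrix median (-0.25 with a minimum of 10 UMIs) and Wfdc18 (-1.13 without high-UMI members). The cause was not tested. Few KO UMIs stood behind Fst (6) and Trp63 (2).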
